A study of Homo sapiens with 20 samples.

Results

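T-ALL (T-cell acute lymphoblastic leukemia) lines of human origin that carry TLX1 or TLX3 were compared with lines that carry TAL1 or LMO genes, on arrays of cells that had received vehicle (DMSO) without inhibitor for 72 h. The TLX group held 3 lines, ALL-SIL, DND41 and HPB-ALL, and the TAL1/LMO group held 6, CCRF-CEM, KOPTK1, MOLT3, P12-ICHIKAWA, PF382 and RPMI8402. These 9 arrays were chosen by line name from 20 arrays of 10 lines; the tenth line, CUTLL1, belongs to neither group and stayed out of the test. All 10 lines have activating NOTCH1 mutations, per the series' description, and each also had an array after 72 h with 100 nM of CompE, a gamma-secretase inhibitor, which blocks the cut that frees the active part of NOTCH1. Every line is an established culture that goes back to 1 patient and gave 1 DMSO array, so the line is the replicate, and the labels do not say that arrays came from separate cultures. The group of a line comes from what is known of these lines and not from a label of its own. The medium named for the DMSO cultures of CCRF-CEM, MOLT3 and P12-ICHIKAWA, all in the TAL1/LMO group, is not the one named for the other 6 lines. It is spelled like the name of one of the cell lines and may be an entry error, and the CompE labels of these 3 lines name the same medium as the rest.

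T-ALL is commonly sorted by the transcription factor gene that is switched on in the leukemic clone. TLX1 and TLX3 are homeobox factors whose leukemias usually resemble cortical thymocytes. TAL1 is a basic helix-loop-helix factor that binds DNA as a complex with E proteins, GATA3, RUNX1 and the LIM-domain adaptors LMO1 or LMO2, and in T-ALL this complex is known to act on MYB and on its own members. The 3 TLX lines and KOPTK1 are known to slow their growth under gamma-secretase inhibitors, while the other TAL1/LMO lines are known as resistant. KOPTK1 is therefore the line in which subtype and inhibitor response part. Among the other lines compared, subtype and response go together and cannot be told apart.

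The genes that name the groups were read first, as values without a test. ALL-SIL had a TLX1 signal of 913.5, and no other line exceeded 26.2. TLX3 had 302.1 in DND41 and 267.8 in HPB-ALL, and at most 13.7 elsewhere. The TLX group thus held 1 line high for TLX1 and 2 high for TLX3. TAL1 reached 671.2 in PF382, 579.9 in RPMI8402, 241.5 in CCRF-CEM, 135.1 in KOPTK1 and 61.1 in MOLT3, but 1.73 in P12-ICHIKAWA and at most 4.38 in the TLX lines. LMO2 reached 3844 in KOPTK1, 1197 in P12-ICHIKAWA, 347.7 in PF382, 314.8 in CCRF-CEM and 176.1 in MOLT3, against 21.8 in RPMI8402 and at most 27.5 in the TLX lines. LMO1 was high in RPMI8402 alone, with 595.2, and reached 42.2 at the highest elsewhere. Each line of the TAL1/LMO group was therefore above every TLX line for TAL1, LMO1 or LMO2, although no single one of these genes separated the groups.

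**Figure D1:**
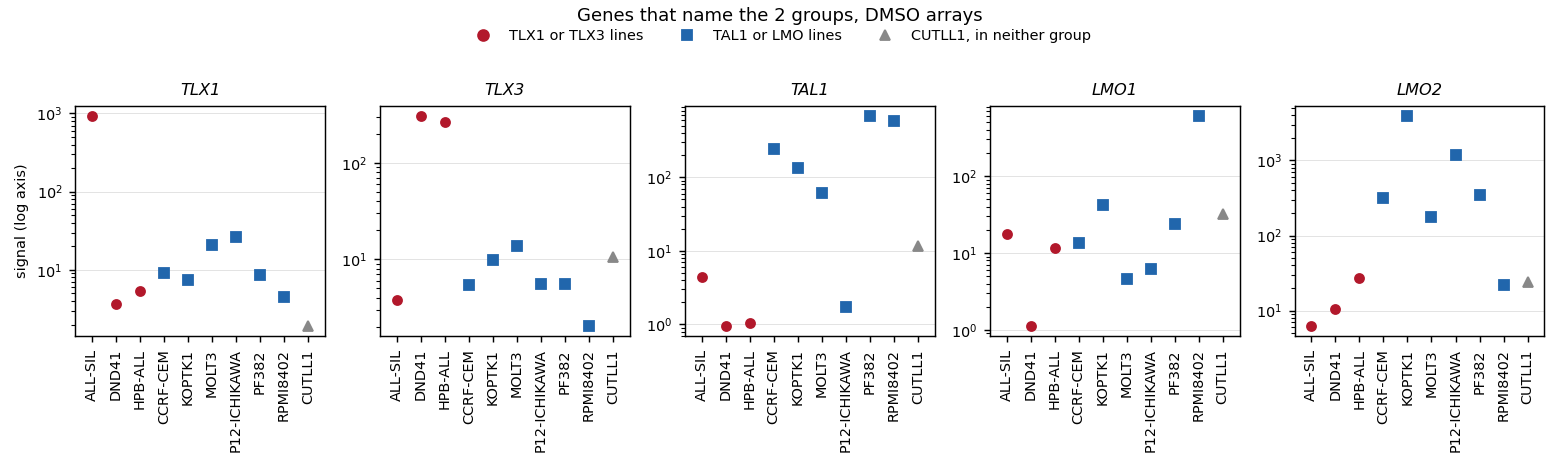
Signal (log axis) of TLX1, TLX3, TAL1, LMO1 and LMO2 on the DMSO array of each line; circles are the 3 TLX lines, squares the 6 TAL1/LMO lines and the triangle CUTLL1. TLX1 stands out in ALL-SIL (913.5), TLX3 in DND41 and HPB-ALL, LMO1 in RPMI8402 (595.2), and P12-ICHIKAWA is low for TAL1 (1.73) but high for LMO2 (1197).

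All 9 lines had CD3D, a chain of the T-cell receptor complex, at signals from 5699 to 9676. Of the lists of markers of other cell types, the 9 myeloid genes on the array had no signal above 87.1, while the B-cell list summed to between 209.2 and 2689 in the TLX lines and between 214 and 414.6 in the TAL1/LMO lines; its high value was CD79A in DND41 (2469). The NK list summed to between 254.7 and 1475 in the TLX lines and between 177.4 and 793.4 in the others, led by NKG7 in ALL-SIL (1364). Erythroid and megakaryocyte genes (top signal 345.7, EPOR) and epithelial genes (199.1, KRT8) stayed low, and the sum of the fibroblast list was carried by VIM (5448), which T cells also express. PDGFRB, the other tested gene of that list, was dim but kept the groups apart. It was 65.7 to 107.2 in the TLX lines and 19.9 to 38.8 in the others, beside 2.34% of all genes without overlap on that side. The part of these genes in the results was not tested. The 9 arrays had median signals from 54.7 to 65.1. The ratio of the 3' to the 5' ACTB probe set, a sign of RNA and labelling quality, was 1.02 to 1.42 in the TLX lines and 1.15 to 3.32 in the TAL1/LMO lines, with the top value in KOPTK1; the groups did not differ by an exact two-sided permutation test (p = 0.238, smallest possible p 0.0238).

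Signals were compared as log2(signal + 16) in limma over 7178 genes, and differences are given as TLX minus TAL1/LMO on that scale, with the standard error. The groups explained 19.6% of the sum of squares among the 9 arrays, with 1 of 8 degrees of freedom. Correlations over these genes were 0.81 to 0.847 between TLX lines, 0.752 to 0.902 between TAL1/LMO lines (median 0.848) and 0.771 to 0.838 between lines of different groups (median 0.798); genes are not independent replicates. At a limma adjusted p under 0.05 the test called 9 genes, or 0.125% of those tested, and all 9 were lower in the TLX lines. No gene was called higher, while 284 genes had an unadjusted limma p under 0.05 in that direction and 446 in the other (730 genes, 10.2%). The 7178 genes had passed a cut on mean signal over all 20 arrays, most of which are not of TLX lines. A gene bright in the TLX lines alone passed it less easily than one dim in them alone, so the 2 directions were not on equal terms. TLX1, TLX3 and LMO1 fell below the cut. Of all genes, 49.6% had a difference above 0, a share that the scaling of each array to one trimmed mean holds near the middle. The 3 TLX lines lay below all 6 others for 246 genes (3.43%) and above all 6 for 168 (2.34%). The count moved by over 1.5 times when 1 line was left out: it was 15 without ALL-SIL, 21 without HPB-ALL, 23 without CCRF-CEM and 5 without PF382. Without the 3 lines of the other medium label it was 9 again, of which 2, BNIP3 and ANXA5, were among the first 9; that fit compares 3 lines with 3.

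BNIP3, which encodes a mitochondrial protein of the BCL2 family that acts in mitophagy and is a classical target of the hypoxia-inducible factors, differed most. Its signal was 1.15 in ALL-SIL, 10.8 in DND41 and 1.64 in HPB-ALL, and in the TAL1/LMO lines it ran from 958 in RPMI8402 through a median of 1347 to 2846 in CCRF-CEM. The TLX lines were thus at the floor of the array while each other line was bright. The means were 4.53 ± 5.43 (SD, n = 3) and 1648 ± 723.5 (SD, n = 6). The difference was -6.27 ± 0.35 (limma adjusted p = 2.4e-05), and a second probe set of the gene gave -5.44, also with no overlap between the groups. The call held in every alternative run and without any 1 line, with limma adjusted p between 6.3e-09 and 0.0044.

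Of the 9 called genes, 7 had an entry in the RefSeq promoter table for GRCh38.p14 (BNIP3, ANXA5, BIN1, PSAT1, TMEM106B, SCML2 and PPFIA4). The 250 bases before the start were searched on both strands for ACGTG, the core that hypoxia-inducible factors bind, and for the E-box CAGCTG and CAGATG, of the kind bound by TAL1 with E proteins; CACGTG contains ACGTG once on each strand and is also bound by MYC. ACGTG was found in 2 of the 7 (28.6%), BNIP3 and PPFIA4, a share near the 24.5% of 6032 promoters of tested genes. In both it was part of CACGTG, which 9.62% of those promoters hold. CAGCTG was found in 1, BIN1, against 11.9%, and CAGATG in 0, against 7.64%. These shares describe 7 windows and were not tested. The promoters that hold a match are shown because they belong to the called genes, 5′ to 3′ on the strand of the gene, with the matches in capitals. BNIP3 is at chr10:131981924-131982173 on the minus strand, with CACGTG ending 128 bases before the start, PPFIA4 at chr1:203026241-203026490 on the plus strand, with CACGTG ending 113 bases before it, and BIN1 at chr2:127107155-127107404 on the minus strand, with CAGCTG ending 176 bases before it.
BNIP3: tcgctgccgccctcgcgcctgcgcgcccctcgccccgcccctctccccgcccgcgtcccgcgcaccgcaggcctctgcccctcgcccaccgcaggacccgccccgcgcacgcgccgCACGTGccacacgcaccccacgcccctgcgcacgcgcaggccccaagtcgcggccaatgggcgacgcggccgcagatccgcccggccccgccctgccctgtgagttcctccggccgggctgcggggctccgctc
PPFIA4: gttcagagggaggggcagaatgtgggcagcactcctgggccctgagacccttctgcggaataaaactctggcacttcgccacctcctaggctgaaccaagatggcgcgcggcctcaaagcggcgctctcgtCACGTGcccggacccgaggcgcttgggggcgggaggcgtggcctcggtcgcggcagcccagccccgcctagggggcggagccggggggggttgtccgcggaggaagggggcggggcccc
BIN1: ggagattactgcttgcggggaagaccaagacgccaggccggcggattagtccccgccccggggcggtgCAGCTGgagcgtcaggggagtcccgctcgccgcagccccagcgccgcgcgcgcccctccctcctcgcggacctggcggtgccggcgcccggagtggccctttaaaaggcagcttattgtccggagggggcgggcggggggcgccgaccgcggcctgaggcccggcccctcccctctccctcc

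ANXA5 encodes annexin A5, which binds phosphatidylserine. It had signals of 3.93, 4.86 and 1.64 in ALL-SIL, DND41 and HPB-ALL and 108.8 to 401 (median 238.4) in the TAL1/LMO lines, a difference of -3.69 ± 0.36 (limma adjusted p = 0.0028). TSPAN7, a tetraspanin of the cell surface, was not at the floor in the TLX lines, with 242.1, 82.5 and 366.2, but was 1706 to 3511 (median 2630) in the others, a difference of -3.61 ± 0.38 (limma adjusted p = 0.0038). BIN1, a membrane-bending adaptor that was also described as a MYC-interacting protein, had 6.65, 16.9 and 3.7 against 85.7 to 268.2 (median 175.2), a difference of -2.86 ± 0.36 (limma adjusted p = 0.017). Its probe sets numbered 5, all with a negative difference, and in 4 the groups did not overlap. These 3 genes and BNIP3 stayed called without any 1 line; the call of TSPAN7 was lost in 1 alternative, without the 3 lines of the other medium label (limma adjusted p = 0.051), and that of BIN1 there (0.066) and with a pseudocount of 64 (limma adjusted p = 0.053).

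PSAT1 encodes the aminotransferase of serine synthesis. Its signals were 26.3, 8.56 and 27.8 in the TLX lines and 213.5 (KOPTK1) to 1416 (CCRF-CEM) in the others, with a median of 582.8 and a difference of -3.93 ± 0.51 (limma adjusted p = 0.017). PNMA2, a member of a family of neuronal antigens, was 24.6 in ALL-SIL and 17.6 in HPB-ALL but 219.6 in DND41, and 714.3 to 1292 (median 1102) in the TAL1/LMO lines, a difference of -3.94 ± 0.53 (limma adjusted p = 0.019). DND41 was thus the nearest TLX line for this gene. TMEM106B, a lysosomal membrane protein, had 28.4, 6.56 and 0.33 against 96.4 to 406.3 (median 311.8), a difference of -3.41 ± 0.47 (limma adjusted p = 0.019). SCML2, a polycomb-group protein of the X chromosome, had 14.8, 37.3 and 18.5 against 173.8 to 754.5 (median 260.8), the top value being that of KOPTK1; the difference was -3.00 ± 0.42 (limma adjusted p = 0.019). PPFIA4, a liprin that is a known hypoxia-induced gene, stayed between 1.69 and 2.30 in the TLX lines and between 53.99 and 285.9 (median 118.9) in the others, a difference of -2.98 ± 0.45 (limma adjusted p = 0.034). The calls of these 5 genes were less steady: out of 9 fits without 1 line, PSAT1 and PNMA2 were called in 7, TMEM106B in 5, SCML2 in 4 and PPFIA4 in 3.

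**Figure D2:**
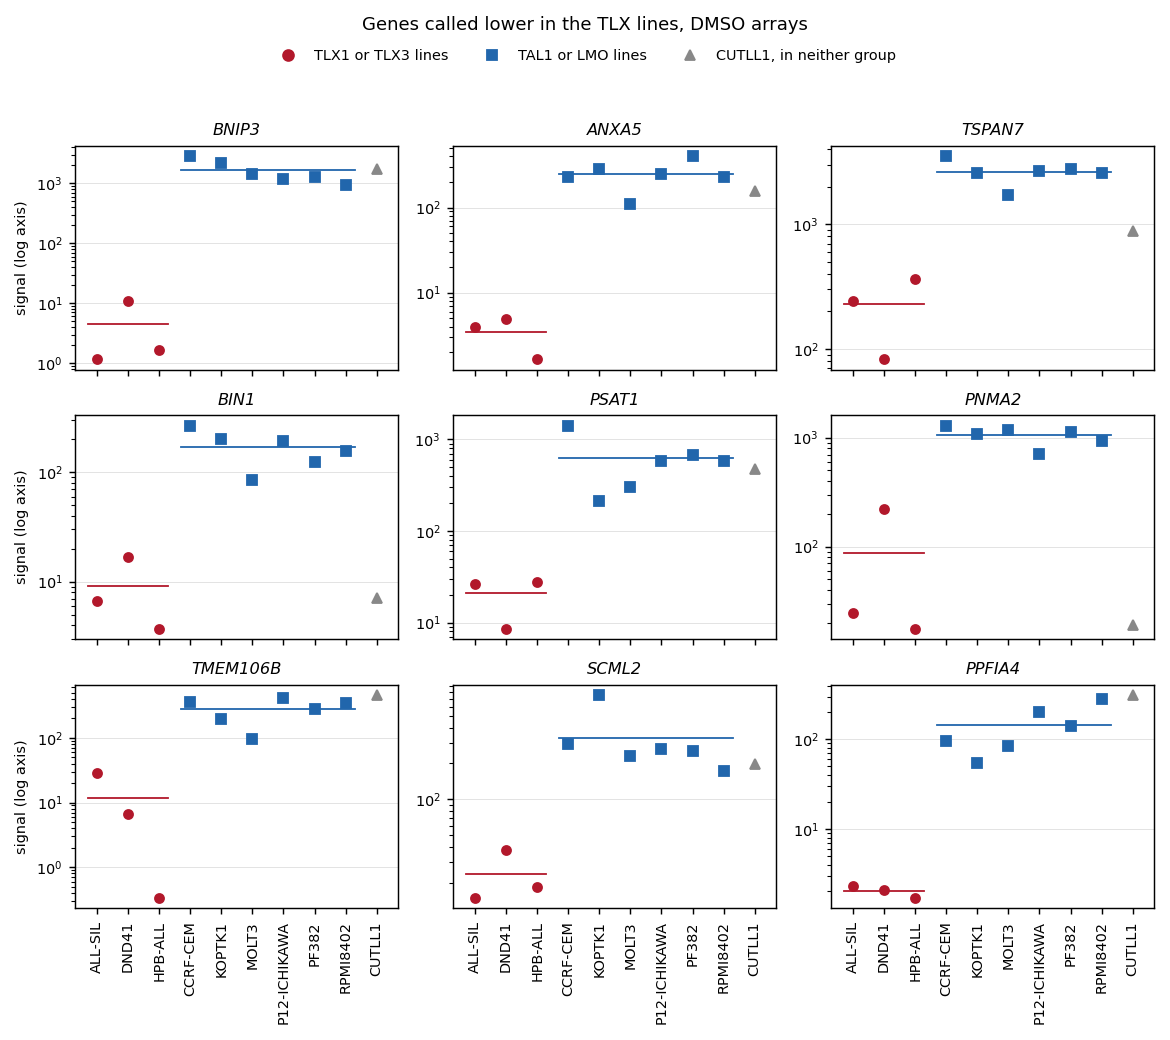
Signal (log axis) of the 9 genes called lower in the TLX lines, 1 panel per gene in order of p; each point is the DMSO array of 1 line, horizontal lines are the means of the 3 TLX lines (circles) and of the 6 TAL1/LMO lines (squares), and the triangle is CUTLL1. The groups do not overlap in any panel; CUTLL1 lies with the TLX lines for BIN1 (7.15) and PNMA2 (19.0) and with the TAL1/LMO lines for BNIP3 (1771).

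The next genes with no overlap and lower values in the TLX lines did not pass the threshold and are given as values. HOXB7, a homeobox gene outside the HOXA cluster, was 9.56 to 19.1 in the TLX lines and 58.1 to 181.5 in the others, a difference of -2.28 ± 0.37 (limma adjusted p = 0.057), and 2 of its 3 probe sets kept the groups apart. AK4, a mitochondrial adenylate kinase that is a known hypoxia-induced gene, was 8.08 to 20.2 against 105.8 to 766, a difference of -3.06 ± 0.52 (limma adjusted p = 0.075). PDHB, a subunit of pyruvate dehydrogenase, was 577.2 to 905.3 against 1229 to 1784, but its other probe set differed by 0.07 and the groups overlapped there, so the gene is uncertain.

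On the other side, the 12 genes with the smallest p among those above all TAL1/LMO lines in every TLX line had limma adjusted p from 0.055 to 0.22. SMPD3, a neutral sphingomyelinase that makes ceramide, was 752.6 in ALL-SIL, 1412 in DND41 and 363.4 in HPB-ALL, against 6.49 to 137.8 (median 44.0) in the TAL1/LMO lines. The lowest TLX line was thus above the highest other line. The difference was 3.68 ± 0.59 (limma adjusted p = 0.055). KLF6, a zinc-finger factor, was 354.8, 1009 and 380.2 against 20.3 to 172.1 (median 91.3), a difference of 2.50 ± 0.51 (limma adjusted p = 0.12), and all 3 of its probe sets kept the groups apart. APBB1IP (RIAM), which links RAP1 to integrin activation in T cells, was 99.3, 219 and 344.9 against 26.1 to 62.9, a difference of 2.12 ± 0.38 (limma adjusted p = 0.10). LIMS2, a LIM-domain protein of integrin adhesions, was 377.6, 1202 and 424.9 against 83.9 to 211.4, a difference of 2.15 ± 0.43 (limma adjusted p = 0.12). MAD1L1, a protein of the spindle checkpoint, was 405 to 909 against 60.7 to 343.8. The other 7 were PA2G4 (difference 0.83), WDR41 (1.22), EMID1 (1.37), AP1S2 (1.17), ASF1B (1.05), GINS3 (1.02) and PAFAH2 (1.67). The other probe sets of PA2G4 (0.42), AP1S2 (0.46) and GINS3 (0.70) overlapped, while that of PAFAH2 (1.12) kept the groups apart. ASF1B, a histone chaperone, and GINS3, a part of the replicative helicase, are genes of DNA replication; their CompE arrays, described further on, no longer kept the groups apart.

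**Figure D3:**
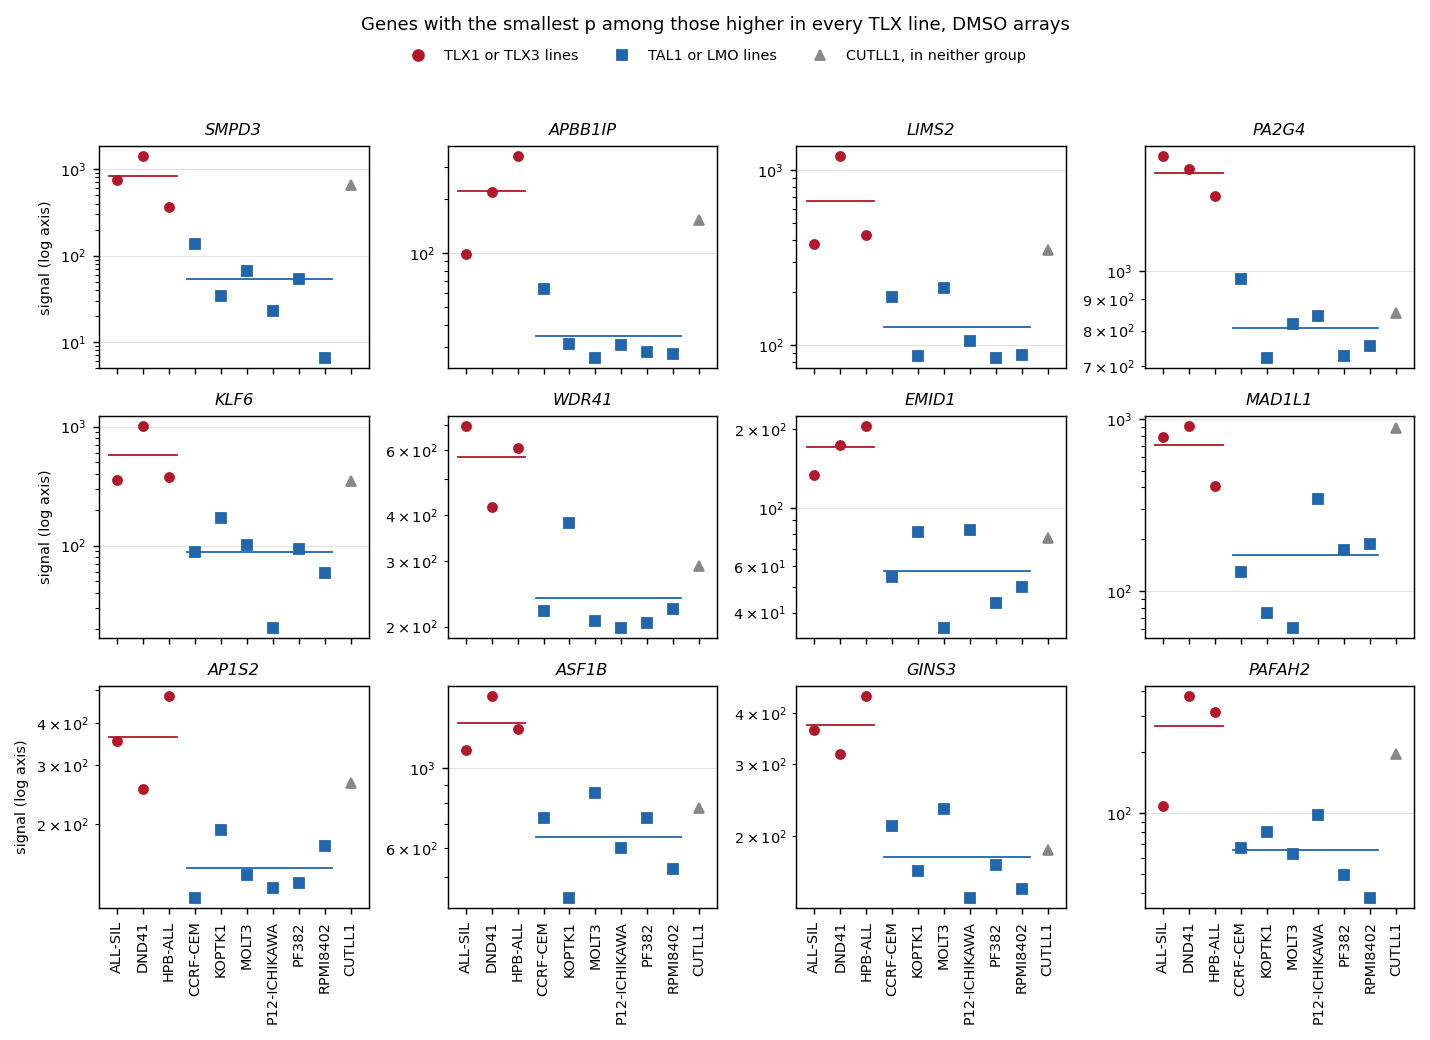
Signal (log axis) of the 12 genes with the smallest p among those that were higher in each TLX line than in each TAL1/LMO line; symbols and mean lines are as in the plot of the called genes. None passed the threshold: the smallest limma adjusted p was 0.055 (SMPD3), whose TLX lines lay between 363.4 and 1412 and whose TAL1/LMO lines lay between 6.49 and 137.8.

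Genes of the TAL1 complex and its known targets had differences of both signs: of 14 tested, 8 were above 0, and the median was 0.02 beside -0.004 over all genes. Of these 14, 0 were called, beside 0.125% of all genes. The 2 without overlap, beside 3.43% of all genes, were both lower in the TLX lines, and at an unadjusted limma p under 0.05 there were 4 lower and 1 higher. ALDH1A2, a retinaldehyde dehydrogenase that TAL1 with LMO proteins is known to switch on in T-ALL, was 2.65, 3.94 and 19.5 in the TLX lines and 70.1 in KOPTK1, while the other 5 TAL1/LMO lines had 1526 to 4544. The difference was -5.85 ± 1.01 (limma adjusted p = 0.075). MYB, a transcription factor of blood progenitors, was even within the TLX lines (2332 to 2373) and 3166 to 4772 in the others, a difference of -0.69 ± 0.17 (limma adjusted p = 0.22), and its other probe set also kept the groups apart. ARID5B, another known target, overlapped, with 46.3 to 379.7 against 251.1 to 995.4. GATA3, the T-lineage factor of the complex, differed by 0.60 ± 0.34.

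Markers of cortical thymocytes had a median of 1.22 over 14 genes, with 11 above 0, yet none was called and none kept the groups apart. Over all genes 0.125% were called, and 2.34% kept the groups apart on the higher side. CD1B, which presents lipids on cortical thymocytes, was 748.8, 5182 and 5833 in the TLX lines and 2.97 to 3052 (median 1245) in the TAL1/LMO lines, in which CCRF-CEM and RPMI8402 were near 0 and the other 4 lines were not. CD1A had the same order of the TLX lines, with 219.7, 594.6 and 1920 against 18.6 to 875.8. RAG1, one of both recombinase genes, was high in DND41 (1068) and HPB-ALL (398.6), but near the floor in ALL-SIL (6.22), against 11.1 to 300.3 in the TAL1/LMO lines. PTCRA, the pre-T-cell receptor chain, differed by 0.19 ± 0.65 on the probe set used and by 1.29 and 0.75 on its other 2, all overlapping. The higher median therefore went with a wide spread inside both groups.

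Surface and signalling genes of T cells had differences of both signs, with none called, beside 0.125% of all genes. S1PR1, the receptor by which thymocytes leave the thymus, was 1.002 to 24.2 in the TLX lines and 48.7 to 288.9 in the others, a difference of -2.02 ± 0.60 (limma adjusted p = 0.30). CCR9, a thymic homing receptor, was at most 33.4 in the TLX lines and 1060 to 1759 in 4 TAL1/LMO lines, with 176.5 in RPMI8402 and 14.5 in CCRF-CEM, so the groups overlapped through 1 line. CD7 was 392.9 to 2737 against 80.2 to 543.6. Of 20 genes of T-cell receptor signalling, 0 were called by limma, 12 were above 0 and 3 had no overlap (2 lower, 1 higher), beside 3.43% of all genes lower and 2.34% higher. The proximal kinase LCK was 1106 to 1653 in the TLX lines and 2973 to 5046 in 5 TAL1/LMO lines but 895.7 in CCRF-CEM, while its relative FYN was 1465 to 1879 against 728.5 to 1440 (difference 0.52 ± 0.23, limma adjusted p = 0.48); FYN's other 2 probe sets did not separate the groups. NFATC1 (-1.31) and PLCG1 (-0.77) kept the groups apart on the probe set used and not on their other probe sets.

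The IL7 receptor pathway had a median of 0.52 over 18 genes, with 13 above 0 and 0 called, beside 0.125% of all genes called. Its 1 gene with no overlap was lower in the TLX lines, beside 3.43% of all genes on that side. IL7R itself, which carries the growth signal of IL7 into thymocytes, was 2571 in DND41 and 1074 in HPB-ALL but 22.7 in ALL-SIL, against 3.94 to 121.4 in the TAL1/LMO lines. The TLX3 lines were high and the TLX1 line was not. STAT5A, which acts downstream, went the other way, with 369 in ALL-SIL, 74.2 in DND41 and 56.1 in HPB-ALL against 331.9 to 1040, a difference of -2.23 ± 0.55 (limma adjusted p = 0.23). STAT5B was 345 to 507.5 against 609.8 to 814.5, the gene of the list with no overlap, but its other 2 probe sets overlapped. SOCS1, a feedback inhibitor of this pathway, was 742.5, 926.5 and 90.4 against 36.2 to 242.6, with KOPTK1 at the top of its group.

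The NOTCH pathway, with NOTCH1 mutated in all lines, had a median of 0.17 over 20 genes, with 13 above 0. In it 0 were called and 0 had no overlap, beside 0.125% of all genes called and 3.43% (lower) and 2.34% (higher) without overlap. NOTCH1 was 388.9 to 878.3 in the TLX lines and 353.4 to 1126 in the others (-0.03 ± 0.39). NOTCH3, itself a known NOTCH1 target, was 337.1, 1226 and 1514 against 21.1 to 564.6, a difference of 1.78 ± 0.83 (limma adjusted p = 0.49). HES1 and MYC, both direct targets, differed by 0.47 ± 0.79 and 0.72 ± 0.55 and overlapped widely. NOTCH2 was 489.1 to 1249 against 178.6 to 679.2 on the probe set used, and 2 of its other 3 probe sets kept the groups apart.

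Among genes of the cell cycle and of cell death no gene was called, beside 0.125% of all genes. CDKN2A, an inhibitor of the cyclin D kinases that is often deleted in T-ALL, was 1955 in DND41 and 1396 in HPB-ALL and 64.7 in ALL-SIL, against 35.01 to 73.6 in 5 TAL1/LMO lines and 275.7 in KOPTK1. RB1, the tumour suppressor downstream of these kinases, was 11.3 in ALL-SIL and 774.2 to 1383 in the other 8 lines on the probe set used; its difference of -2.10 ± 0.92 came from 1 line, and its other probe set gave 0.39. PMAIP1 (NOXA), a BH3-only protein, was 1177 to 2060 against 516.5 to 1329, a difference of 1.09 ± 0.32 (limma adjusted p = 0.29). BIK was 4.15 in DND41 and 6.87 in HPB-ALL but 176.1 in ALL-SIL, against 106.2 to 230.9. SPRY1, a feedback inhibitor of receptor kinases upstream of MAPK, was 10.6 to 47.5 against 85.2 to 672.8, a difference of -2.92 ± 0.57 (limma adjusted p = 0.12). Of 12 tested genes of the MAPK list it was the 1 whose groups did not overlap, beside 3.43% of all genes on the lower side. ERG, an ETS factor of early progenitors, was 3.45 to 23.1 against 26.0 to 951.4, the highest value being that of RPMI8402, and its other 2 probe sets overlapped.

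Chromatin genes had 2 of 20 tested members with no overlap, both lower in the TLX lines and neither called, beside 3.43% of all genes without overlap on that side. SETD2, the enzyme that trimethylates H3K36, was 260.5 to 295.6 against 520.3 to 875.8 (-1.06 ± 0.22, limma adjusted p = 0.13), although its other 2 probe sets gave -0.01 and 0.23. KDM6B, an H3K27 demethylase, was 165.5 to 228.2 against 234.7 to 629.5. DNA replication genes had a median of 0.16 over 21 genes, 15 above 0. CDT1 (529.9 to 579.2 against 163.5 to 520.5) and POLA1 (392.4 to 553.5 against 176.4 to 332.7) did not overlap, beside 2.34% of all genes on the higher side. Genes of the interferon response and MHC class I had a median of 0.50 over 28, with 23 above 0 and 0 called, beside 0.125% of all genes called. The 1 with no overlap, beside the same 2.34% of all genes, was IFI35 (146.8 to 207.7 against 37.1 to 106.6, limma adjusted p = 0.24). MX2, an interferon-induced GTPase, was 371 to 830.3 against 70.6 to 469.3.

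Glycolysis genes had a median of -0.16 over 19, with 3 not overlapping and lower in the TLX lines, beside 3.43% of all genes, and 0 called. ALDOC, an aldolase, was 21.8 to 56.9 against 68.3 to 2113, a difference of -3.78 ± 0.82 (limma adjusted p = 0.17). GPI was 643.2 to 2039 against 2366 to 4125, and the difference of PGAM1 was -0.33. Because BNIP3, PPFIA4, AK4 and ALDOC are all known hypoxia-induced genes, a list of such genes was written after these values had been seen and is a description without a test. Of its 23 tested genes, 19 had a difference below 0, the median was -0.60, 5 had no overlap (the 4 named and PFKFB3, a regulator of glycolysis) and 2 were called (BNIP3 and PPFIA4). Over all genes 3.43% had no overlap on this side and 0.125% were called, but 4 of the 5 are the genes that prompted the list, so these counts are partly fixed by the choice. PFKFB3 was 131.2 to 217.6 against 250.7 to 1421. In a list of serine synthesis and its transporters, also written afterwards, the 7 tested genes, PSAT1 included, had 5 above 0 and 2 below in DMSO; the median was 0.65 there and -0.69 after CompE. PSAT1 was called and lower in the TLX lines, and SLC1A4, a transporter of neutral amino acids, was 979.8 to 1412 in the TLX lines against 184.6 to 938.1. None of the list medians given here changed sign under the pseudocounts and scalings tried, and the median of all genes stayed between -0.02 and -0.003.

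Other lists are given by their counts, none with a called gene in limma, beside 0.125% of all genes called. Early progenitor genes had 5 of 7 below 0 and the median -1.16, but this list holds LMO2, which names a group. Its other members include LYL1 (-1.16), HHEX (-1.22) and ERG, the 1 without overlap. LYL1 had a median of 37.6 and a top of 1054 in the TAL1/LMO lines, against 10.5 to 114.9 in the TLX lines. HHEX had a median of 36.6 and a top of 931.7, against 14.4 to 28.35. Both differences thus leaned on the brightest TAL1/LMO lines. The T-cell surface list had 13 of 23 above 0 (median 0.23), E proteins and ID genes 4 of 6 (0.40), NF-kB genes 10 of 15 (0.08), cholesterol synthesis 8 of 12 (0.13) and glucocorticoid genes 3 of 10 (-0.28). PI3K, AKT and mTOR genes had 17 of 23 above 0 (median 0.24), and cytosolic ribosomal proteins had 15 of 17 below 0, with a small median of -0.09. Nucleolar genes of ribosome biogenesis had 12 of 15 below 0, with NOLC1 (-0.66) not overlapping on the probe set used, while its other 2 gave 0.03 and 0.47. Genes of oxidative phosphorylation had 11 of 18 below 0. The ATP synthase genes ATP5F1A (-0.52) and ATP5F1B (-0.25) did not overlap, but by narrow gaps. The highest TLX line and the lowest TAL1/LMO line had 3760 and 3876 for ATP5F1A, and 2924 and 2925 for ATP5F1B. Mitosis genes had a median of 0.02 over 20, with AURKA, a spindle kinase, at -0.62 and not overlapping on the probe set used. Its other probe sets (-0.73 and -0.13) overlapped. Homing and adhesion genes had 12 of 18 below 0, of which S1PR1 and CD47 (-0.87), the signal that protects cells from phagocytosis, did not overlap. Against 3.43% of all genes not overlapping on the lower side, such counts are of 1 or 2 genes a list.

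**Figure D4:**
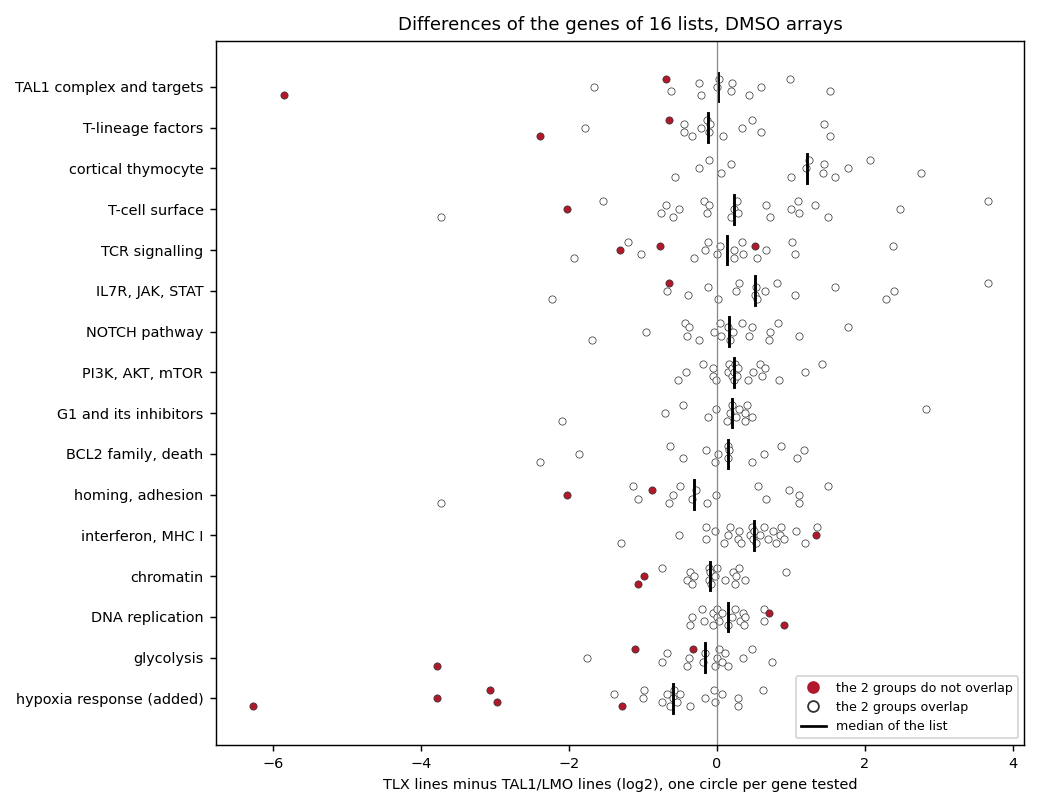
Difference, TLX minus TAL1/LMO lines, on the log2(signal + 16) scale, for each tested gene of 16 lists; filled circles are genes whose groups did not overlap, open circles the rest, and black bars the medians of the lists. Medians lie from -0.60 (hypoxia response, written after values were seen) to 1.22 (cortical thymocytes), and single genes reach -6.27 (BNIP3) and 3.66 (IL7R).

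KOPTK1 was then taken out of its group to see whether it sided with the subtype or with the inhibitor-sensitive TLX lines. The TLX lines and the 5 lines left differ in both traits, so subtype and response cannot be told apart in that contrast. Against the other 5 TAL1/LMO lines, 13 genes were called (0.181%), again all lower in the TLX lines: the 9 above, ALDH1A2, HOXB7, MYLIP and RARS1. The count was 31 without HPB-ALL and 28 without CCRF-CEM. The TLX lines lay below these 5 lines for 336 genes (4.68%) and above them for 211 (2.94%). KOPTK1, which took no part in this choice, was nearer to the 5 lines than to the TLX mean for 10 of the 13 called genes (76.9%) and for 371 of the 547 that did not overlap (67.8%), and it lay outside the range of the TLX lines toward the 5 lines for 11 of the 13 and 414 of the 547 (75.7%). Over all genes the share nearer to the 5 lines was 56.6% and the share outside the TLX range 44.4%. The 76.9% was the top of 54.5% to 76.9% over the alternatives, the low end being with a pseudocount of 64 (6 of 11 genes) and below the share over all genes. HOXB7 lay close to the midpoint, at 0.49 of the way from the 5 lines to the TLX mean.

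The 3 called genes on which KOPTK1 was nearer to the TLX lines were MYLIP, RARS1 and ALDH1A2. MYLIP, a ubiquitin ligase that degrades the LDL receptor, was 3.76 in KOPTK1 and 2.36 to 6.87 in the TLX lines, but 91.1 to 654.7 in the other 5. RARS1, the arginyl-tRNA synthetase, was 286.9 in KOPTK1, inside the TLX range of 275.9 to 358.6, against 756 to 1192. For ALDH1A2 the KOPTK1 signal of 70.1 was above each TLX line and far below the other 5. KOPTK1 was thus the 1 TAL1/LMO line out of 6 without high ALDH1A2, while its LMO2 was the highest of the 9 lines. Among genes that were not called, MDFIC, an inhibitor of MyoD-family factors picked after its values were seen, was 615.1 to 2181 in the TLX lines, 2025 in KOPTK1 and 13.2 to 244.6 in the other 5.

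Against KOPTK1 alone, a single array, the fit called 47 genes (0.655%), 38 higher and 9 lower in the TLX lines. Of the 9 genes called against all 6 lines, 4 were called here: BNIP3 (limma adjusted p = 0.0034), SCML2 (0.0092), ANXA5 (0.035) and TSPAN7 (0.049). The other 5 had negative differences with limma adjusted p from 0.051 (BIN1) to 0.16 (PPFIA4). KOPTK1 is 1 of the 6 lines that chose these 9 genes, so their direction here was fixed by the choice. This fit rests on the assumption that a lone array varies like the other lines. The contrast of KOPTK1 with the other 5 TAL1/LMO lines uses the same array and the same estimate of spread. An outlying value on that array enters both contrasts, so genes they share are no separate evidence. Examples of low KOPTK1 values, picked afterwards, are U2AF1, a splicing factor, with 486.7, and PRMT1, an arginine methyltransferase, with 171.7. KOPTK1 was also the array with the 3' to 5' ACTB ratio of 3.32, and the part of this ratio in these calls was not tested. The count was 103 with a pseudocount of 1, 3 with a pseudocount of 64 and 24 after median centring.

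**Figure D5:**
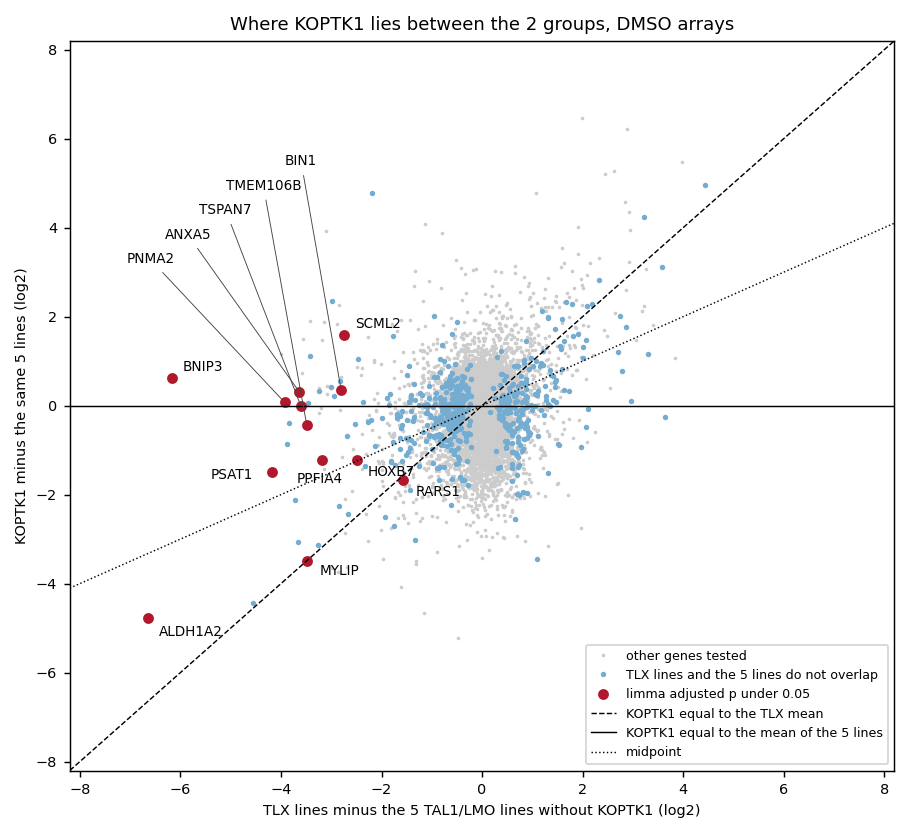
Each dot is 1 of 7178 genes, with the difference of the 3 TLX lines from the 5 TAL1/LMO lines without KOPTK1 on the x axis and the difference of KOPTK1 from the same 5 lines on the y axis (both log2, sharing those 5 lines); red dots are the 13 called genes, blue dots the rest of the 547 whose groups do not overlap, and lines mark where KOPTK1 would equal the 5 lines (solid), the TLX mean (dashed) or the midpoint (dotted). BNIP3, ANXA5, TSPAN7 and 7 other called genes lie on the side of the 5 lines, while MYLIP, RARS1 and ALDH1A2 lie on the side of the TLX lines.

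CUTLL1, which took part in no choice, was nearer to the 5 TAL1/LMO lines for 8 of the 13 called genes and for 211 of the 547 (38.6%), beside 46.7% of all genes. For most of the 547 it was thus nearer to the TLX mean, unlike KOPTK1. The median position, from the 5 lines (0) to the TLX mean (1), was 0.69 for CUTLL1 and 0.15 for KOPTK1. Over all genes these positions were 0.61 and 0.17. The inhibitor response of CUTLL1 was not used here. CUTLL1 was with the TAL1/LMO lines for BNIP3 (1771) and with the TLX lines for BIN1 (7.15), PNMA2 (19.0), ALDH1A2 (1.65) and SMPD3 (647.5).

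The same lines after CompE gave 9 further arrays, which repeat the lines and are not independent of them. KOPTK1's CompE array had a 3' to 5' ACTB ratio of 9.76, against 1.22 to 1.99 in the other CompE arrays of these lines. The part of this ratio in the results below was not tested. On the CompE arrays 12 genes were called (0.167%), 11 lower and 1 higher in the TLX lines. The count was 21 without CCRF-CEM, 16 without KOPTK1 and 7 without PF382. Of the 9 genes called in DMSO, 6 were called again (BNIP3, ANXA5, TSPAN7, BIN1, SCML2 and PPFIA4), and all 9 kept both their direction and the gap between the groups. BNIP3 was 3.33 to 19.2 in the TLX lines and 822.8 to 3112 in the others. HOXB7 (-2.44 ± 0.37, limma adjusted p = 0.035), AK4 (-3.18 ± 0.39, limma adjusted p = 0.011), VAT1, STXBP2 and YBX2 were called here and not in DMSO, and none of the 12 overlapped in DMSO. SMPD3 was the gene called higher: it was 711.8 to 1891 in the TLX lines and 10.7 to 137.8 in the others (4.32 ± 0.55, limma adjusted p = 0.011). The test of whether the change under CompE differed between the groups called 0 genes in limma, with 464 at an unadjusted p under 0.05, so no gene was shown to differ between the groups only with or only without inhibitor. Over both treatments, 76 genes were lower in each TLX line and 45 were higher. List medians after CompE are values without a test: that of DNA replication was -0.24 beside 0.16 in DMSO, that of the serine synthesis list -0.69 beside 0.65, and that of cortical thymocyte markers 1.73 beside 1.22.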

How the data were processed

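Total RNA of 10 lines was hybridised, after DMSO or CompE, to 20 Affymetrix arrays, per the labels. The deposited values are signal intensities on a linear scale made by the authors with MAS5, per the submitters' processing notes; its version is not given in the sources used here. The trimmed mean of each array was 250 when tested (249.9 to 250.1), so arrays were kept as scaled. Probe sets with 1 gene in the platform annotation were named (19064 of 22277, 62 of them controls left out; 19052 matched RefSeq), and the one with the highest mean stood for each of 11963 genes. Genes whose mean log2 signal fell below the 40th percentile (signal about 42) were dropped, which kept 7178. Signals near 0 are noisy in MAS5, and the pseudocount of 16 understates folds of dim genes. The number of arrays limits the precision.

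Groups were compared without pairing in limma 3.58.1 (R 4.3.3), with an intensity trend, two-sided, Benjamini-Hochberg adjusted over all genes at 0.05 (7 residual and 3.57 prior degrees of freedom; 6 and 3.33 with KOPTK1 as its own group). The code was tested on simulated data. P-values measure the spread between lines. Named genes are the 12 largest differences each way among called genes without overlap, filled up by smallest p; up to 4 members of each of 35 lists with the smallest p; and a fixed set. The comparison and the lists were chosen with earlier results of these data known, and 2 lists were added after values were seen.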

Additional observations from a re-analysis of the deposited data

Results flagged for a closer look

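Within the 6 TAL1/LMO lines on DMSO, the genes named in the text were checked for 1 line far from the other 5 (Dixon's ratio above 0.625, a level chance alone passes in about 1 of 20 groups). Of 85 genes checked, 12 had such a line, and in 9 of them it was KOPTK1. RARS1, U2AF1 and PRMT1 were named because of KOPTK1, and ALDH1A2 was called in the fit that leaves it out and not with all 6 lines, so these counts cannot be read against chance. KOPTK1's 3' to 5' ACTB ratio of 3.32 was the highest of the 9 arrays; its part in these values was not tested.

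KOPTK1 was high for SCML2 (754.5 against 173.8 to 290.4), WDR41 (381 against 198 to 222.5), SOCS1 (242.6 against 36.2 to 63.0), CDKN2A (275.7 against 35.01 to 73.6) and SETD2 (875.8 against 520.3 to 607). It was low for ALDH1A2 (70.1 against 1526 to 4544), RARS1 (286.9 against 756 to 1192), U2AF1 (486.7 against 2298 to 2975) and PRMT1 (171.7 against 982.3 to 2221). CCRF-CEM was high for APBB1IP (62.9 against 26.1 to 31.2) and low for LCK (895.7 against 2973 to 5046). P12-ICHIKAWA was high for NFATC1 (702 against 306.1 to 369.7).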

How the results depend on the processing

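No paired analysis was possible because each line belongs to 1 group and the labels carry no replicate numbers. The 9 calls in DMSO became 5 with a pseudocount of 64 (4 of them the same genes), 4 with a filter at the 60th percentile, 15 with a covariate for the ACTB ratio and 75 when the CompE arrays joined with the line as a random block, a fit that takes 18 arrays of 9 lines; all 9 were among the 15 and the 75. The fit with 75 calls includes KOPTK1's CompE array, with its ACTB ratio of 9.76. Leaving out 1 line from the DMSO comparison gave 5 to 23 calls. BNIP3 was called in all 12 alternatives and ANXA5 in the 11 in which it was tested. The 13 calls without KOPTK1 became 6 with the 60th percentile filter and lay between 9 and 31 without 1 line. The 47 calls against KOPTK1 became 103 with a pseudocount of 1, 3 with 64 and 24 after median centring. The 12 calls after CompE lay between 7 and 21 without 1 line. The other alternatives stayed within 1.5 times the count, and the share of calls with KOPTK1 on the TAL1/LMO side lay between 54.5% and 76.9%. Over 85 named genes and 1757 values, 13 changed sign, all in genes not called between the groups: HES1 (-0.33 with the ACTB covariate, -0.037 to 0.95 without 1 line), NOTCH1 (0.065 without the 3 lines of another medium label, -0.26 to 0.31 without 1 line), PTCRA (-0.0016 with the random block, -0.078 without those 3 lines, -0.81 to 0.81 without 1 line), TCF3 (0.15 with the mean of probe sets), and U2AF1 (-0.10) and PRMT1 (-0.12) with the ACTB covariate. The cause was not tested. The number of arrays limits the precision, and signals near the array's floor give no order among lines.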
